A study of Mus musculus with 12 samples.

Results

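Wild-type mouse embryonic stem cells given Wnt3a were compared with knockout cells left untreated, so that the ligand and the loss of the repressor were set against each other. The comparison holds 6 of the series' 12 arrays, chosen by their labels alone. The 3 arrays of Tcf3+/+ cells had 50 ng/ml recombinant Wnt3a for 24 h, and the 3 arrays of Tcf3-/- cells had control medium. The other 2 groups, Tcf3+/+ cells in control medium and Tcf3-/- cells with Wnt3a, are given as side values where they place a level. All cells grew without feeders on gelatin in serum medium with Lif, so the comparison describes cells held in self-renewal. Which part of the gene the Tcf3-/- allele lacks, and how many clones were used, the sources used here do not say. Arrays of a group carry replicate numbers and no word on separate cultures. The p-values therefore speak only of array-to-array spread, possibly technical.

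The labels' Tcf3 is now named Tcf7l1. It encodes a Tcf/Lef family protein that binds DNA at Wnt response elements and mostly represses its targets in embryonic stem cells. Wnt3a, a secreted ligand, blocks the complex that destroys beta-catenin. Beta-catenin then binds Tcf/Lef proteins, turns on targets such as Axin2 and Sp5, and relieves repression by Tcf7l1 at pluripotency genes such as Esrrb. Treatment with the ligand and loss of the gene are thus both used to relieve that repression.

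Levels are log2 of the deposited intensities, listed for the arrays of a group in label order. Differences are Wnt3a-treated wild type minus untreated knockout, n = 3 arrays in each group, and their standard errors (SE) come from the limma fit. A gene was called where its limma p, adjusted over 13811 genes by the Benjamini-Hochberg method, lay under 0.05. Medium and array preparation cannot be told apart here. The bacterial dap transcript, which is spiked into RNA before labelling, read 4.38, 4.35 and 4.44 on the untreated knockout arrays and 11.69, 11.82 and 11.76 on the Wnt3a-treated wild-type arrays (3' probe set). The 3' probe sets of actin and Gapdh each differed by 0.02, while those of 18S ribosomal RNA were higher by 1.14 to 2.01 and those of the transferrin receptor by 0.51 to 0.82 in Wnt3a-treated wild type (3 control probe sets each). Where a gene had at least 2 called probe sets, they disagreed in direction for 622 of 2451 genes (25.4%), against 51 of 2075 (2.46%) between the untreated genotypes and 52 of 1214 (4.28%) between the genotypes with Wnt3a. Among genes with 2 or more called probe sets that each differed 2-fold or more, 0 of 186 disagreed. Every embryonic stem cell marker in a list of 7 lay above the floor in both groups (the floor is 5.56, the 40th percentile of all values). Fibroblast or feeder markers lay above it for 5 of 7 in Wnt3a-treated wild type and 4 of 7 in untreated knockout, with Col3a1 and Lum below it in both. Their summed intensity ran from 434 to 459 and from 474 to 505.

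**Figure D1:**
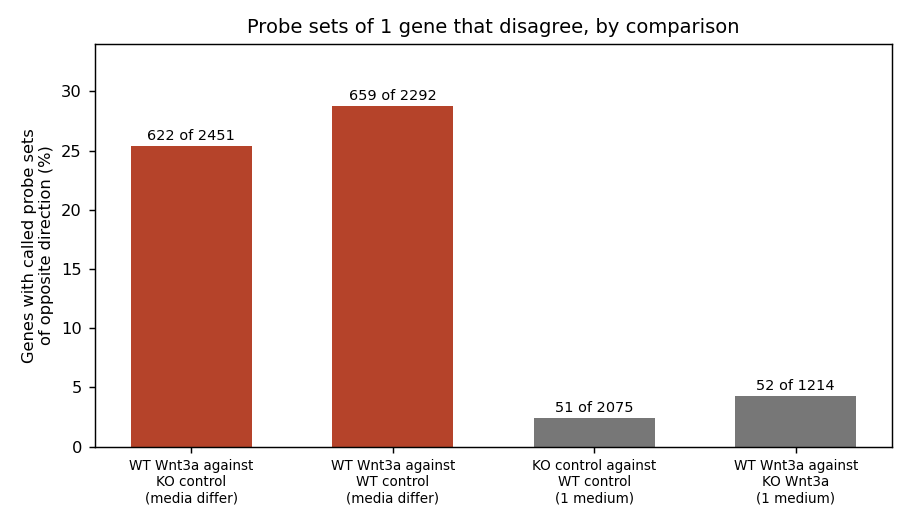
Percentage of genes whose called probe sets (2 or more) point in opposite directions (vertical axis), for 4 comparisons, with the gene counts above the bars. Disagreement stood at 25.4% and 28.8% in the 2 comparisons across media and at 2.46% and 4.28% in the 2 within a medium.

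The targeted gene separated the groups without reaching background in the knockout. Tcf7l1 read 10.50, 10.41 and 10.21 in Wnt3a-treated wild type and 9.58, 9.37 and 9.45 in untreated knockout, so every wild-type array lay above every knockout array. The difference was 0.91 ± 0.10 (SE, adjusted p = 4.04e-05), and a second probe set differed by 1.28. Untreated wild type averaged 10.85.

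Across all genes the comparison was nearly balanced. Wnt3a-treated wild type was called higher for 3084 of 13811 genes (22.3%) and lower for 3042 (22%). At 2-fold or more, 312 genes were higher (2.26%) and 238 were lower (1.72%). The median difference was -0.01 and the median SE was 0.0886. The 95% interval of the difference lay within 0.5 of 0 for 8884 genes (64.3%). The higher share of all calls was 50.3%, and it was 41.6% with quantile normalization repeated and 61.9% with each array centred on its median, so the split moved with the scaling. On the first principal component (64.1% of the variance) the Wnt3a-treated wild-type arrays lay at -21.9, -13.4 and -4.63, between untreated wild type (-46.5 to -33.3) and untreated knockout (21.7 to 24.2). The second (19.5%) placed Wnt3a-treated wild type at 19.7 to 21.3 and untreated knockout at -21.2 to -17.5. The Wnt3a-treated wild-type arrays thus differed among themselves along the first component, and array 1 lay nearest to untreated wild type.

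**Figure D2:**
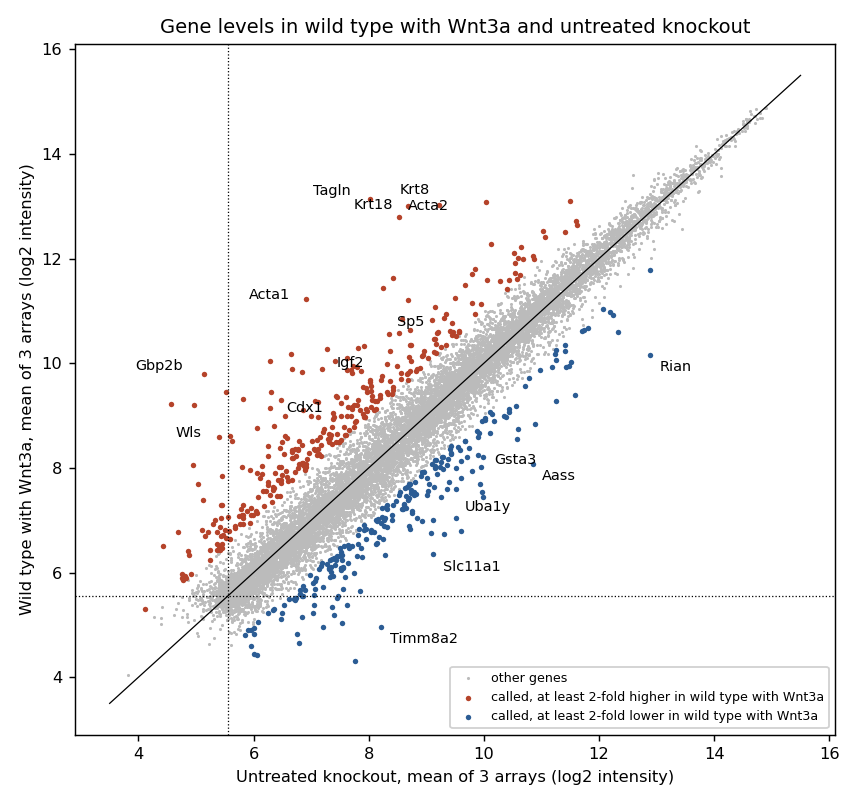
Mean log2 intensity in untreated knockout (horizontal) and in Wnt3a-treated wild type (vertical) for 13811 genes, 3 arrays each; colours mark the 312 genes called at least 2-fold higher and the 238 called at least 2-fold lower, the solid line marks equal levels and the dotted lines the floor of 5.56. Contractile, keratin and guanylate-binding protein genes stand furthest above the line, and Timm8a2, Slc11a1 and Rian among the furthest below it.

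No core or general pluripotency gene was called at 2-fold or more, and more naive genes were called lower than higher. In RNA from whole cultures, fewer cells with a gene on and less RNA per cell cannot be told apart. Of 19 core and general pluripotency genes, 4 were higher (21.1%), 7 were lower (36.8%) and 8 did not pass. Over all genes 22.3% were higher and 22% lower. Of the 19 genes, 14 had an interval within 0.5 of 0, as did 64.3% of all genes. The median difference of the 19 genes was -0.12, and 4 were lower without untreated knockout array 3 or with each array centred on its median. Of 22 naive pluripotency genes, 5 were higher, 10 were lower (45.5%, against 22% over all genes) and 7 did not pass, with a median of -0.32 and 4 intervals within 0.5 of 0. The naive list's median stood 1.04 above untreated wild type in untreated knockout and 0.89 above it in Wnt3a-treated wild type. These 3 differences share arrays. Within Wnt3a medium the median difference of wild type from knockout was -0.22.

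Nanog, a homeodomain factor that sustains self-renewal, read 13.18, 13.32 and 13.40 in Wnt3a-treated wild type and 13.46, 13.45 and 13.28 in untreated knockout. The arrays overlapped and the difference was -0.10, with a 95% interval of -0.26 to 0.06 (adjusted p = 0.289). Untreated wild type lay about 1 log2 unit lower, at a mean of 12.41. Zfp42, the Rex1 zinc finger gene that marks the naive state, read 13.47, 13.51 and 13.52 against 13.50, 13.56 and 13.46. Its difference was -0.01 (interval -0.17 to 0.15, adjusted p = 0.930), and untreated wild type averaged 12.86. Pou5f1 (Oct4) differed by -0.12, with an interval of -0.28 to 0.04 (adjusted p = 0.216). For these 3 genes a difference beyond 0.5 lay outside the interval. With quantile normalization repeated, Nanog (-0.19, adjusted p = 0.0358) and Pou5f1 (-0.21, adjusted p = 0.0407) passed as lower.

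Other naive factors stayed below the knockout level with Wnt3a. Tbx3, a T-box factor that supports self-renewal, read 9.62, 10.18 and 10.42 in Wnt3a-treated wild type and 11.01, 10.81 and 10.69 in untreated knockout, with untreated wild type at 8.26, 8.25 and 8.38. Every Wnt3a-treated array lay between the untreated genotypes, and the shortfall was -0.77 ± 0.17 (SE, 1.70-fold, adjusted p = 0.00316). Esrrb, an orphan nuclear receptor that Tcf7l1 represses, read 11.39, 11.67 and 11.88 against 12.08, 12.002 and 12.02, from 10.34 in untreated wild type. Its shortfall of -0.39 (adjusted p = 0.0142) became -0.26 and did not pass without Wnt3a-treated wild-type array 1 (adjusted p = 0.0544). Tfcp2l1, a transcription factor of the same circuit, read 11.48, 11.79 and 12.001 against 12.14, 12.002 and 12.10. Its difference of -0.32 (adjusted p = 0.0356) was lost without Wnt3a-treated wild-type array 1 (-0.19, adjusted p = 0.139) or array 2 (-0.34, 0.0654), and without untreated knockout array 1 (-0.29, 0.0998) or array 3 (-0.31, 0.0881). It reversed to 0.03 (adjusted p = 0.717) when all its probe sets were averaged.

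Manba, a lysosomal mannosidase counted with the naive genes, showed the larger version of that pattern. It read 10.53, 10.93 and 11.30 in Wnt3a-treated wild type and 12.34, 12.19 and 12.18 in untreated knockout, a difference of -1.32 ± 0.16 (SE, adjusted p = 7.38e-05). Zfp57, a zinc finger protein that guards imprinted methylation, was the lowest of the list at -1.42, with 8.73, 8.96 and 9.21 against 10.47, 10.34 and 10.35. Untreated wild type (9.01 to 9.31) overlapped the Wnt3a-treated arrays of Zfp57 and knockout cells with Wnt3a averaged 9.42. Fgf4, the growth factor that prompts exit from the naive state, differed by -1.10, Tcl1 by -0.99, and Klf2, a Krüppel-like factor, by -0.59 (12.34, 12.30 and 12.38 against 13.05, 12.79 and 12.96). Among general pluripotency genes Foxd3 differed by -0.91, Dnmt3l by -0.54 and Utf1 by -0.42.

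The naive genes called higher were 5 of 22 (22.7%), against 22.3% over all genes. Klf5 read 12.77, 12.82 and 12.93 against 12.37, 12.42 and 12.32 in untreated knockout, higher by 0.46 ± 0.07 (SE, adjusted p = 0.000352) and without overlap. Klf4, a reprogramming factor, read 11.82, 12.04 and 12.18 against 11.71, 11.67 and 11.67, from 10.39 in untreated wild type. Its difference of 0.33 (adjusted p = 0.0233) did not pass with quantile normalization repeated (0.22, adjusted p = 0.0979). Nor did it pass without untreated knockout array 2 (0.32, adjusted p = 0.0571) or array 3 (0.32, 0.0628), or without Wnt3a-treated wild-type array 2 (0.32, 0.0640) or array 3 (0.25, 0.0902). Nr5a2, a nuclear receptor, was higher by 0.53 with its brightest probe set and by 0.17 (adjusted p = 0.140) with all probe sets averaged. Dppa3 (Stella), a maternal-effect and germ cell gene, read 10.51, 10.15 and 9.82 against 9.002, 8.89 and 8.95, higher by 1.21 (adjusted p = 7.69e-05), while untreated wild type lay at 9.56 to 9.86. Knockout cells with Wnt3a averaged 8.30 for Dppa3. Sox2 was higher by 0.28 (adjusted p = 0.0158). It did not pass without untreated knockout array 3 (0.22, 0.0732) or Wnt3a-treated wild-type array 3 (0.23, 0.0599), or with quantile normalization repeated (0.19, 0.0604). With Wnt3a, wild type and knockout cells averaged 12.84 and 12.82 for Klf5, 12.01 and 12.15 for Klf4 and 13.155 and 13.20 for Sox2. For Nr5a2 they averaged 11.30 and 11.15. Whether medium or array preparation sets these levels was not tested.

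**Figure D3:**
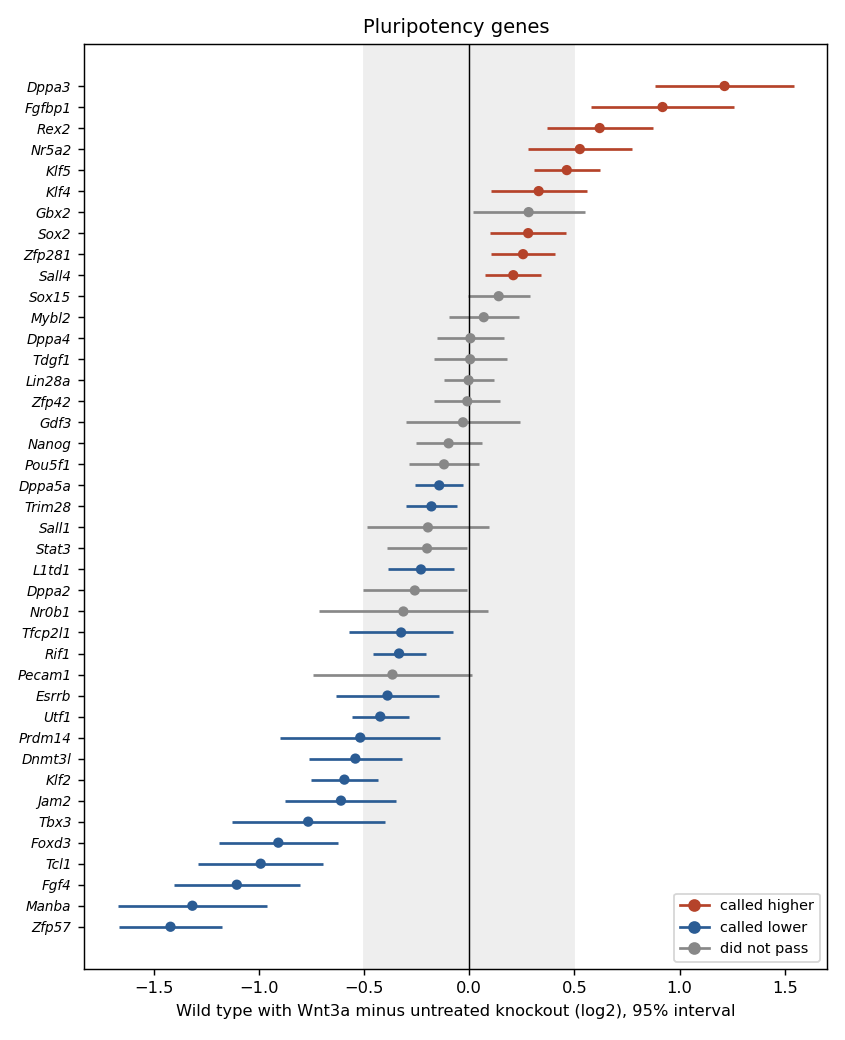
Difference of Wnt3a-treated wild type from untreated knockout (log2, horizontal) for the tested naive and general pluripotency genes, with 95% intervals from the limma fit; colours mark calls and the grey band spans -0.5 to 0.5. Nanog, Zfp42 and Pou5f1 lie inside the band, Zfp57 and Manba lie below it and Dppa3 above it.

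Direct Wnt targets and feedback genes stood mostly above the knockout level, with 15 of 25 tested called higher (60%, against 22.3% over all genes). Another 2 were lower (8%, against 22%) and 8 did not pass, with a median of 0.32 and 7 members at 2-fold or more. Against untreated wild type, the median of these genes was -0.003 in Wnt3a-treated wild type and -0.11 in untreated knockout, differences that share arrays. Within Wnt3a medium their median difference of wild type from knockout was 0.34. Sp5, a zinc finger factor induced by beta-catenin, read 10.78, 10.58 and 10.34 in Wnt3a-treated wild type and 8.26, 8.20 and 8.62 in untreated knockout, higher by 2.21 ± 0.26 (SE, 4.61-fold, adjusted p = 5.24e-05). Untreated wild type (8.08 to 9.44) overlapped untreated knockout, and knockout cells with Wnt3a reached 9.94. Sp5 was thus higher on every Wnt3a array of either genotype than on every control-medium array. Cdx1, a caudal-type homeobox gene, read 8.61, 8.87 and 9.31 against 7.49, 7.23 and 7.43 and was higher by 1.54 (adjusted p = 0.000361). Untreated wild type averaged 6.04 for Cdx1 and knockout cells with Wnt3a 9.36, so each genotype was higher with the ligand. Axin2, the feedback scaffold of the destruction complex, read 9.35, 9.35 and 9.49 against 8.81, 8.59 and 8.94 and was higher by 0.62 (1.53-fold, adjusted p = 0.00677). Nkd1, a feedback inhibitor, was higher by 0.26, Lgr5, an R-spondin receptor, by 0.49 and Tnfrsf19 by 0.36.

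Sp5 was picked from named genes already found to hold the Tcf/Lef core before the start site. It was called higher, and the others listed with the core did not pass. The choice thus did not rest on expression alone, and the core in Sp5 is no test of a link to its level. The bases before the Sp5 start site are shown with the core in capitals. They come from RefSeq, build GRCm38.p6, plus strand, chr2:70474673-70474922, the 250 bases up to the start.
Sp5: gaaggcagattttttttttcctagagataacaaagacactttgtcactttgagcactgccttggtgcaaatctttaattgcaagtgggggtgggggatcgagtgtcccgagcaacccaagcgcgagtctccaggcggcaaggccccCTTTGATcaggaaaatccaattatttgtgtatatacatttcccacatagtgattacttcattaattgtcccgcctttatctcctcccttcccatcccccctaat
The search was for the 7 letters ATCAAAG on both strands in windows of 250 bases before to 50 after each start, and no other motif was searched. In Sp5 the capitals are its reverse complement, CTTTGAT, beginning 104 bases before the start. A window was found for 11071 of the 13811 genes tested, and 361 of them (3.26%) held the letters, against 3.73% of all 32851 windows. The letters were in 3.1% of genes called higher and 3.69% of genes called lower. At 2-fold or more they were in 5 of 250 higher genes (2%) and in 2 of 185 lower genes (1.08%).

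Other members of that target list stood higher with a different profile across the groups. Jun, an AP-1 factor, read 8.97, 8.59 and 8.13 in Wnt3a-treated wild type and 6.52, 6.49 and 6.76 in untreated knockout (1.97 higher, adjusted p = 1.76e-05). Untreated wild type lay at 9.48 to 9.99 and knockout cells with Wnt3a averaged 6.54, so the levels of Jun parted by genotype. Ccn1 (2.26), Ccn4 (1.37), Ccn2 (1.15) and the hyaluronan receptor Cd44 (1.07) were also higher. Sfrp1, a secreted Wnt inhibitor, was lower by -0.82, at 7.65, 7.78 and 7.83 against 8.48, 8.66 and 8.57. Zcchc12 was lower by -0.55. Lef1 read 9.13, 9.18 and 9.09 against 8.50, 8.66 and 9.28 and did not pass (0.32, adjusted p = 0.104). Without untreated knockout array 3 it passed at 0.55 (adjusted p = 0.000481), and without array 1 it stood at 0.16.

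Of 34 Wnt ligands, receptors and secreted inhibitors, 11 were higher (32.4%), 3 were lower (8.82%) and 20 did not pass, with a median of 0.06. Over all genes 22.3% were higher and 22% were lower. Wls, the carrier that takes Wnt proteins to the cell surface, read 8.49, 8.53 and 8.76 against 5.67, 5.32 and 5.21. The knockout mean lay below the floor, so Wls was at least 8.19-fold higher in Wnt3a-treated wild type (adjusted p = 1.71e-05). Wnt4 was higher by 1.56, the Frizzled receptors Fzd2 by 1.25 and Fzd6 by 0.96. Fzd4 (-0.54) and Fzd7 (-0.34) were lower beside Sfrp1. Porcn, which acylates Wnt proteins, read 9.74, 9.75 and 9.94 against 9.76, 9.61 and 9.62 and did not pass (0.15, interval -0.06 to 0.35), while untreated wild type averaged 8.26. Of 21 Tcf/Lef and destruction complex genes, 5 were higher (23.8%, near the share over all genes), none was lower and 16 did not pass. Their median was 0.03. The higher count was 3 without untreated knockout array 2 or without Wnt3a-treated wild-type array 1 or array 2. Beta-catenin itself (Ctnnb1) differed by -0.01, with an interval of -0.12 to 0.10. Gsk3b, the kinase of the destruction complex, was higher by 0.42. Tcf7l2 was called higher at 0.67 but did not pass without any one of the 6 compared arrays (adjusted p = 0.0514 to 0.116) or without untreated wild-type array 3 (adjusted p = 0.0504). It had another probe set called lower, and Csnk1a1 likewise (0.25, and -0.03 with all probe sets averaged).

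**Figure D4:**
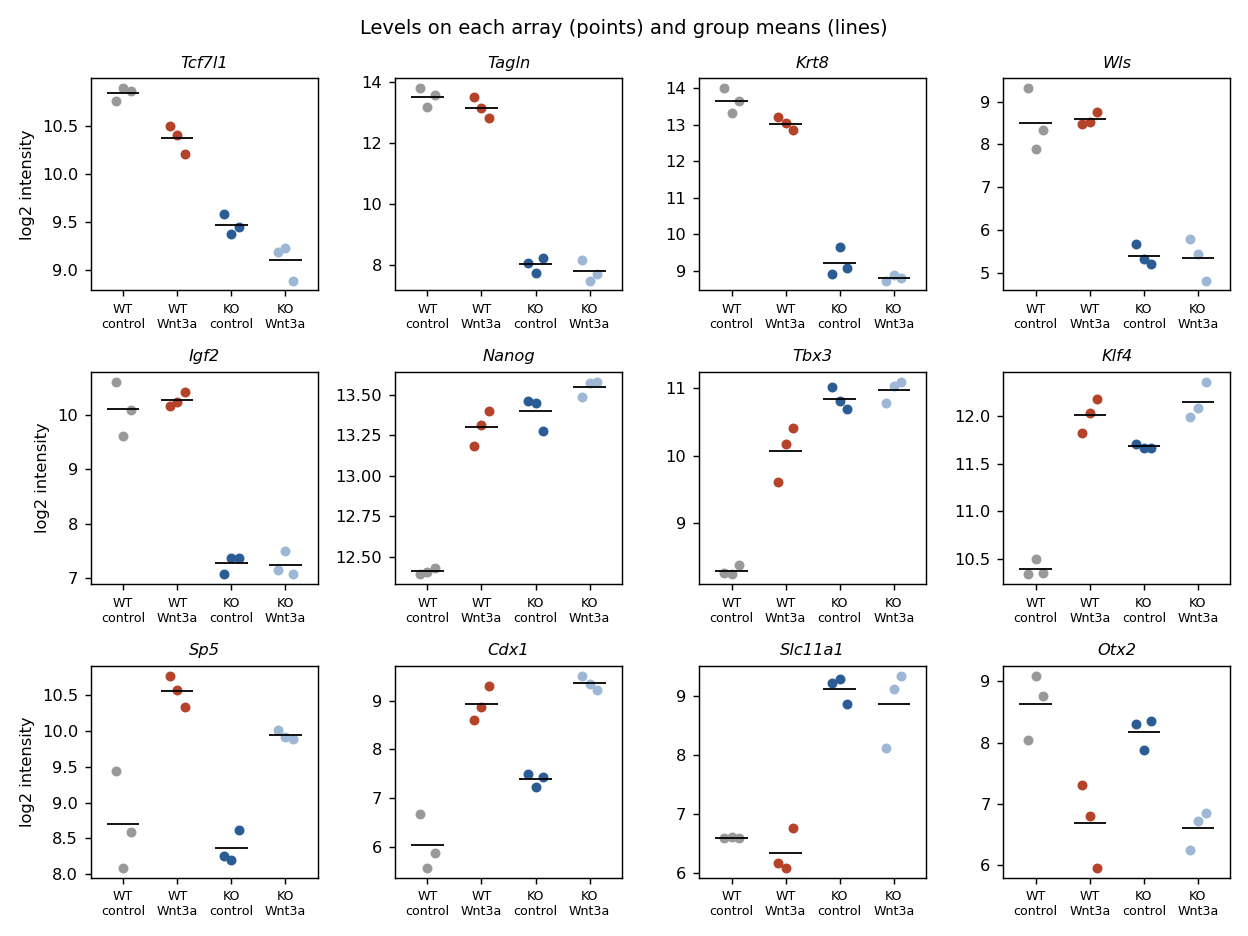
Log2 intensity on each of the 12 arrays (points) with group means (lines) for 12 genes in the 4 groups. Tagln, Krt8, Wls and Igf2 are separated by genotype in both media, Sp5, Cdx1 and Otx2 by medium in both genotypes, and Nanog, Tbx3 and Klf4 are lowest in untreated wild type.

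Contractile and cytoskeletal genes had the highest median of the 30 lists. Of 27 actomyosin and smooth muscle type genes, 21 were higher (77.8%, against 22.3% over all genes), none was lower (against 22%) and 6 did not pass. Their median was 1.25 and 15 were at least 2-fold higher. Against untreated wild type, the list's median was -0.27 in Wnt3a-treated wild type and -1.47 in untreated knockout, differences that share arrays. Tagln (transgelin), an actin-binding protein of smooth muscle, read 13.49, 13.14 and 12.80 against 8.08, 7.76 and 8.25, higher by 5.12 ± 0.22 (SE, 34.7-fold, adjusted p = 4.30e-08). Untreated wild type lay at 13.17 to 13.80. The actins Acta1 (4.30) and Acta2 (4.26), calponin Cnn1 (3.15), tropomyosin Tpm1 (3.03) and the light chain Myl9 (2.69) followed. Acta2 read 12.82, 12.85 and 12.71 against 8.31, 8.72 and 8.56. Cnn1 spread more among the Wnt3a-treated arrays, at 10.13, 9.51 and 8.73, and every one lay above untreated knockout (6.29, 6.04 and 6.58). The cytoplasmic actins did not pass, Actb at 0.05 (interval -0.06 to 0.15) and Actg1 at 0.10. Srf, which drives many contractile genes, did not pass (-0.18), but it passed as higher at 0.34 with all probe sets averaged and as lower at -0.26 (adjusted p = 0.0386) with quantile normalization repeated. In the fibroblast and feeder list, which also holds Tagln and Acta2, 5 of 16 were higher (31.2%) and 2 were lower (12.5%). Without untreated knockout array 3 the higher count was 3. Beside Tagln and Acta2, the higher members were the collagens Col5a1 (0.52) and Col1a1 (0.48) and S100a4 (0.26). Col1a1 averaged 5.81 in Wnt3a-treated wild type and 5.32 in untreated knockout, and its knockout mean lay below the floor of 5.56. The surface marker Thy1 (-1.18) and fibronectin Fn1 (-0.39) were lower. Col1a2 (0.39), Postn (0.08), Dcn (0.01) and Col6a1 (0.01) were among those that did not pass. The part of other cell types in the contractile gap was not tested beyond these values.

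Genes linked to Yap, a co-activator that responds to tension, and to caveolae stood higher for 15 of 18 members (83.3%) and lower for none. Over all genes 22.3% were higher and 22% were lower, and the list's median was 0.85. Ccn1, a secreted matrix protein, read 11.16, 10.78 and 10.61 against 8.22, 9.13 and 8.40 (4.80-fold, adjusted p = 1.14e-05). Tissue factor F3 was higher by 2.13, the receptor kinase Axl by 1.74 and caveolin Cav1 by 1.30. Axl read 7.97, 7.68 and 8.03 in Wnt3a-treated wild type, between untreated wild type (8.53 to 9.30) and untreated knockout (5.96 to 6.35). Yap1 itself was higher by 0.26.

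Of 33 epithelial keratin and junction genes, 21 were higher (63.6%) and 7 were lower (21.2%), against 22.3% and 22% over all genes. Their median was 0.62, and 10 were at least 2-fold higher against 1 lower. The simple-epithelium keratins led. Krt18 read 13.13, 13.03 and 12.88 against 8.29, 9.12 and 8.62 (20.2-fold, adjusted p = 1.17e-07). Krt8, its partner, read 13.20, 13.05 and 12.84 against 8.93, 9.65 and 9.09 (14.01-fold). Krt19 was higher by 3.52 and Krt7 by 2.69. The annexin Anxa3 (3.20), claudin Cldn7 (2.21) and desmoplakin Dsp (2.06) were also higher, and E-cadherin Cdh1 by 0.62. Lgals3 (galectin-3) went the other way at 10.33, 10.61 and 10.86 against 12.42, 12.17 and 12.40, lower by -1.73 (3.31-fold). Plakoglobin Jup (-0.64), Spint1 (-0.63), Rab25 (-0.57) and Epcam (-0.28) were lower too.

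Trophectoderm genes were higher for 11 of 19 (57.9%) and lower for 1 (5.26%), with a median of 0.35. Krt7, Krt8 and Krt18 count among the 11. Cdx2, the trophectoderm homeobox factor, read 7.68, 7.38 and 7.45 against 6.83, 6.43 and 6.94 (0.77 higher, adjusted p = 0.00343). The placental homeobox genes Rhox6 (1.41) and Rhox9 (0.86), Gata2 (0.69) and the receptor Fgfr2 (0.84) were higher, Elf3 was lower (-0.75), and Hand1, Tead4 and Eomes did not pass. Of 15 primitive streak and mesoderm genes, 2 were higher (13.3%) and none was lower, with a median of 0.04. Of 13 neural genes, 3 were higher (23.1%) and 2 were lower (15.4%), with a median of 0.06. Over all genes these shares were 22.3% and 22%. Of 17 endoderm genes, 3 were higher (17.6%) and 1 was lower (5.88%), with a median of 0.05, and the counts turned on single knockout arrays. Without untreated knockout array 2, 6 were higher, and without array 1, 4 were lower. The summed intensity of 5 endoderm markers ran from 308 to 942.5 across the untreated knockout arrays and from 408 to 522 in Wnt3a-treated wild type. Col4a1, a basement membrane collagen of that list, read 10.35, 10.51 and 10.69 in Wnt3a-treated wild type and 8.76, 10.93 and 9.32 in untreated knockout and did not pass (0.85, adjusted p = 0.108). Without untreated knockout array 2, where it was high, it passed at 1.48 (adjusted p = 0.00033).

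**Figure D5:**
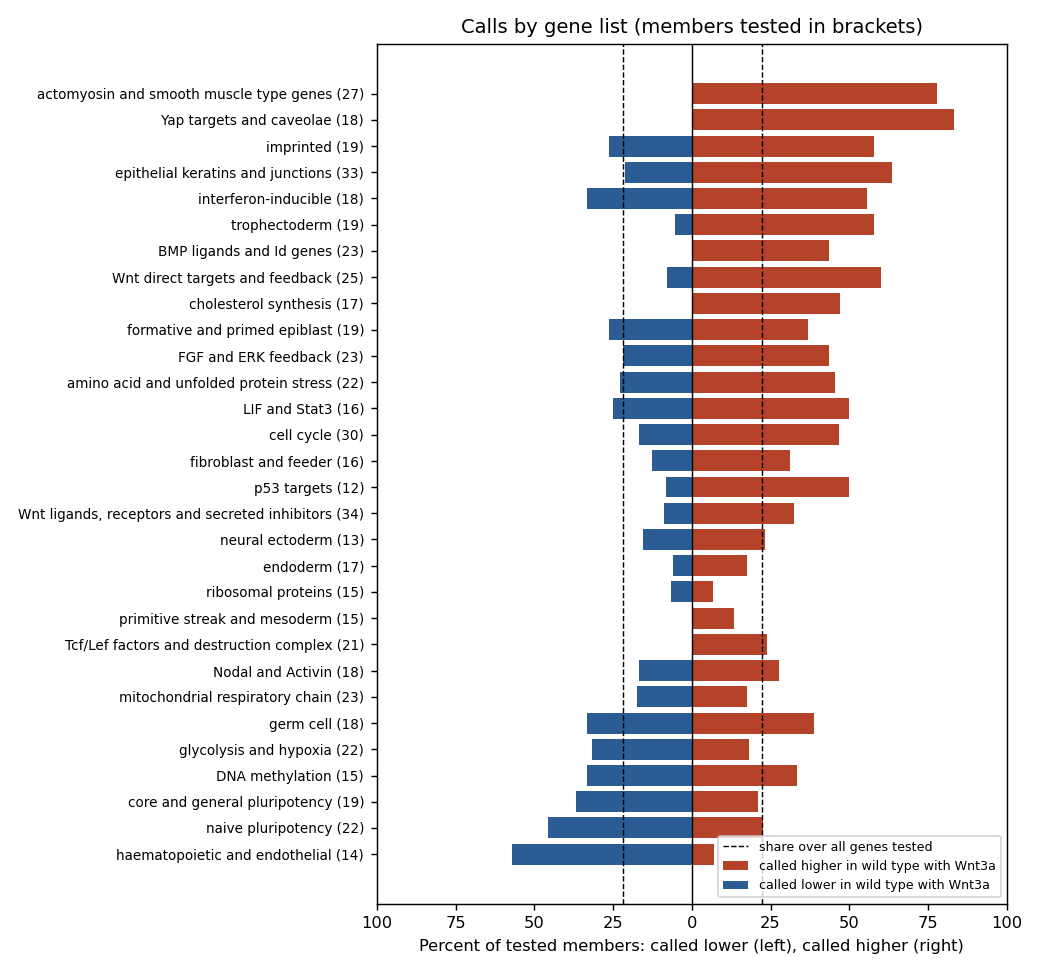
Percentage of tested members called higher (right) and lower (left) in Wnt3a-treated wild type for 30 gene lists, ordered by median difference, with the number tested in brackets; dashed lines mark 22.3% higher and 22% lower over all genes. Actomyosin and Yap lists reach 77.8% and 83.3% higher with no member lower, and haematopoietic genes reach 57.1% lower.

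Lists of other signalling pathways are set beside the shares over all genes, 22.3% higher and 22% lower. Of 23 BMP pathway genes, 10 were higher (43.5%) and none was lower, with a median of 0.33. Id2, an inhibitor of helix-loop-helix factors and a BMP target, read 10.96, 10.58 and 10.35 against 8.78, 8.55 and 8.83 (1.91 higher, adjusted p = 2.44e-05), from 11.54 to 11.65 in untreated wild type. Id1 was higher by 0.69. The ligand Bmp2 was at least 1.71-fold higher, with the knockout mean below the floor, and Bmp8b was higher by 1.24. Of 23 FGF and ERK feedback genes, 10 were higher (43.5%) and 5 were lower (21.7%), with a median of 0.22 and 2 at 2-fold or more each way. The ERK phosphatase Dusp4 was higher by 1.87, at 9.13, 8.96 and 8.84 against 7.09, 7.26 and 6.98. Egr1, an immediate-early ERK target, was lower by -1.53, at 10.10, 10.01 and 9.73 against 11.51, 11.41 and 11.50, and Spry4 was lower by -0.81. In the LIF and Stat3 list 8 of 16 were higher (50%) and 4 lower (25%), with a median of 0.16 and none at 2-fold. Pim1 (0.77) and the receptor Lifr (-0.38) were among the called members. The lower shares of the FGF and LIF lists lay near the share over all genes. The higher count was 5 without untreated knockout array 3 or Wnt3a-treated wild-type array 2 and 4 without Wnt3a-treated wild-type array 3. The lower count was 2 without untreated knockout array 3 or Wnt3a-treated wild-type array 1 or array 2.

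Formative and primed epiblast genes, which mark exit from the naive state, were higher for 7 (36.8%) and lower for 5 (26.3%) of 19. Over all genes 22.3% were higher and 22% were lower. The list's median was 0.23, and 3 members were at least 2-fold higher and 1 at least 2-fold lower. Pou3f1 (Oct6) read 9.78, 9.20 and 8.16 against 7.41, 7.10 and 7.61, higher by 1.67 (adjusted p = 0.000910), with untreated wild type at 10.57 to 10.72. Its Wnt3a-treated arrays spread over more than 1 log2 unit. Sox11 (1.12) and Sox4 (1.05) were higher. Otx2, an epiblast homeobox factor, went the other way, at 7.30, 6.80 and 5.96 against 8.31, 7.88 and 8.35 (-1.49, adjusted p = 0.00317). Untreated wild type averaged 8.64 for Otx2 and knockout cells with Wnt3a 6.61, so Otx2 parted by medium. Gad1, a glutamate decarboxylase, and the homeobox gene Cux2 parted by medium upwards. Gad1 read 7.58, 7.97 and 8.17 against 5.95, 6.05 and 6.16, with knockout cells at 7.81 under Wnt3a, and Cux2 was higher by 1.28. Whether medium or array preparation sets these levels was not tested.

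Imprinted genes, expressed from a single parental copy, were higher for 11 (57.9%) and lower for 5 (26.3%) of 19. Over all genes 22.3% were higher and 22% were lower. The list's median was 0.63, and 6 members were at least 2-fold higher and 3 at least 2-fold lower. Igf2, a fetal growth factor, read 10.16, 10.24 and 10.41 against 7.09, 7.38 and 7.38 (7.94-fold, adjusted p = 1.31e-06), with untreated wild type at 9.61 to 10.60. Igf2r, the receptor that clears it, read 9.63, 9.45 and 9.56 against 7.96, 7.85 and 7.88 and was higher by 1.65. Untreated wild type averaged 8.35 for Igf2r, below the Wnt3a-treated arrays. The cell cycle inhibitor Cdkn1c was higher by 1.95 and the G-protein gene Gnas by 1.57. The maternally expressed RNAs of the Dlk1-Meg3 region were lower together. Rian read 10.31, 10.18 and 10.00 against 12.74, 12.85 and 13.09 (-2.73, 6.63-fold), Mirg differed by -1.38 and Meg3 by -1.09. For Rian, untreated wild type read 12.33, 10.94 and 12.26, and knockout cells with Wnt3a averaged 11.30. Rian was thus lower on average with Wnt3a in each genotype, and within Wnt3a medium wild type differed from knockout by -1.14. Whether medium or array preparation sets its level was not tested. All 11 tested Meg3 probe sets were called lower. Dlk1, the coding gene of the region, did not pass (-0.21).

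Interferon-inducible genes were higher for 10 (55.6%) and lower for 6 (33.3%) of 18, against 22.3% and 22% over all genes. Their median was 0.41, and 5 were at least 2-fold higher and 2 at least 2-fold lower. The guanylate-binding proteins Gbp2b and Gbp2 were at least 18.8-fold and 12.5-fold higher, since untreated knockout lay below the floor for both. Gbp2 read 9.98, 9.34 and 8.28 against 5.07, 4.71 and 5.13. Beta-2-microglobulin (B2m), the light chain of MHC class I, was higher by 1.64 and the immunoproteasome subunit Psmb8 by 1.30. Xaf1 read 6.30, 7.22 and 7.49 against 9.55, 9.02 and 8.76 (-2.11, adjusted p = 0.00174), and Oas1a (-1.31) and Ifitm1 (-0.87) were lower as well.

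The remaining large gains outside the lists included Prss23, a serine protease, at 9.18, 9.19 and 9.28 against 4.10, 4.78 and 4.80, at least 12.6-fold higher. The matrix protein thrombospondin Thbs1 was at least 14.7-fold higher, the myelin protein gene Pmp22 was higher by 3.77 and Samd4 by 3.51.

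The largest shortfalls from the knockout level came from genes of several kinds. Timm8a2 read 4.64, 4.73 and 5.52 against 8.25, 8.14 and 8.26 and was at least 6.31-fold lower in Wnt3a-treated wild type (adjusted p = 1.09e-06). Untreated wild type averaged 5.17, and knockout cells with Wnt3a 8.19. Slc11a1, a metal transporter of phagocytes, read 6.18, 6.09 and 6.77 against 9.22, 9.28 and 8.87 (-2.78), with untreated wild type at 6.59 to 6.62. Aass, which degrades lysine, read 8.23, 7.89 and 8.13 against 10.79, 10.93 and 10.85 (6.84-fold lower, adjusted p = 4.30e-08). The Y-linked Uba1y differed by -2.47, the egg-coat gene Zp3 by -2.42 and Egfl6 also stood among the 12 largest. Rcsd1 differed by -2.80, but 1 of its 3 tested probe sets was called higher. Gsta3, a glutathione transferase, read 7.74, 8.17 and 8.72 against 10.20, 9.76 and 10.00 (-1.77), from 6.12 to 6.23 in untreated wild type, so the Wnt3a-treated arrays covered only part of the distance.

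Of 18 germ cell genes, 7 were higher (38.9%) and 6 were lower (33.3%), against 22.3% and 22% over all genes. Their median was -0.04, and 2 were at least 2-fold higher and 4 at least 2-fold lower. Dazl, an RNA-binding protein of germ cells, read 7.73, 7.80 and 8.25 against 9.17, 8.83 and 8.80 (-1.01, adjusted p = 0.000385), from 6.58 to 7.07 in untreated wild type. Hormad1, a meiotic chromosome protein, differed by -1.30 and Prdm1 by -1.26. Magea4 was at least 3.48-fold lower, since its mean in Wnt3a-treated wild type lay below the floor. Piwil2 (1.02), Ddx4 (0.98) and the receptor Kit (0.53) were higher. Kit read 10.43, 10.69 and 10.90 in Wnt3a-treated wild type and 10.20, 10.14 and 10.10 in untreated knockout, with untreated wild type at 8.67 to 8.74, so Wnt3a-treated cells lay beyond the knockout level. Haematopoietic and endothelial genes were lower for 8 of 14 (57.1%) and higher for 1 (7.14%), with a median of -0.40. With the 60th percentile as filter 5 were lower, and Rcsd1 and Runx1 among the 8 each had a probe set called higher. Myo1f, a myosin of blood cells, differed by -1.15 and by -0.76 without Wnt3a-treated wild-type array 1.

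Metabolic lists had small medians. Their shares are set beside those over all genes, 22.3% higher and 22% lower. Cholesterol synthesis genes were higher for 8 of 17 (47.1%) and lower for none, with a median of 0.25 and no member at 2-fold. The higher count was 5 without untreated knockout array 2 or Wnt3a-treated wild-type array 1. Of 22 glycolysis and hypoxia genes, 4 were higher (18.2%) and 7 were lower (31.8%), with a median of -0.05 and 2 at least 2-fold lower. The glucose transporter Slc2a1 was higher by 0.99, at 13.64, 13.61 and 13.52 against 12.60, 12.49 and 12.70, and the phosphofructokinase Pfkp (-1.21) and the hydroxylase Egln3 (-1.10) were lower. Ribosomal protein genes were higher for 1 (6.67%) and lower for 1 (6.67%) of 15, with a median of 0.05. The intervals of all 15 lay within 0.5 of 0. With a trended, robust prior 7 of them were higher. Of 23 respiratory chain genes, 4 were higher (17.4%), 4 were lower (17.4%) and 22 intervals lay within 0.5 of 0.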

How the data were processed

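RNA in 12 samples, 4 groups of 3, was measured on 1 Affymetrix array type. The authors deposited intensities, linear and not log2 (9.26 to 35984), computed with RMA per the submitters' processing notes. The RMA version was not given in the sources used here, and neither were its settings. Log2 of the deposited intensity was taken with no pseudocount. Median intensities per array ran from 71.6 to 73.4 in control medium and from 68.4 to 70.3 with Wnt3a, and the number of arrays limits the precision.

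Of 45101 probe sets, 34945 carried 1 gene symbol of the platform annotation (18193 genes), 932 carried several, 9160 were unlisted and 64 were controls. Of 18194 Entrez identifiers, 18032 were found in RefSeq (GRCm38.p6), which served for names, chromosomes and promoters. Symbols that did not match, among them Tcf7, are not analysed here. The brightest probe set stood for each gene, kept where at least 3 of 12 arrays exceeded the 40th percentile (5.56, intensity 47.2), which also served as floor. Where a group mean lay below the floor, the fold is a bound against it.

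Group means over all 12 arrays were fitted by limma (version 3.58.1, R version 4.3.3; eBayes, constant prior), with Benjamini-Hochberg adjustment over 13811 genes and a threshold of 0.05. On simulated data for this comparison with 13814 genes, 71 of 100 changes of 0.5 and 96 of 100 of 1 (log2) were recovered. There were 5 false calls. No other genes were changed, noise was independent between arrays and no shift of preparation was simulated. In the data 44.4% of genes were called, so these rates do not measure the errors of the comparison across media. Lists are described by counts and medians, with no set test.

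Named genes are the 12 largest calls each way without overlapping arrays, from each list the 4 largest called members and the 2 largest that did not pass, and a set of 40 Wnt, pluripotency and cytoskeletal genes. Other members printed were chosen after their values were seen. The comparison, members and lists were chosen with earlier results of these data known. Alternatives changed the filter, probe set rule, scaling, offset, prior, block and arrays in the fit. Same-numbered arrays of the 2 groups deviated together by correlations of 0.029, 0.104 and -0.051, so the numbers did not pair them.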

Additional observations from a re-analysis of the deposited data

Results flagged for a closer look

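The 3' probe set of the spiked-in dap transcript, which is added during preparation and carries no cell RNA, differed by 7.36 on the log2 scale between Wnt3a-treated wild type (11.75) and untreated knockout (4.39). It read 4.43 in untreated wild type and 11.63 in knockout cells with Wnt3a, so its gap between media was far larger than any gap between genotypes within a medium. Probe set 1419304_at, which the annotation used here does not list, was higher by 4.11 in Wnt3a-treated wild type (9.55 against 5.44, limma adjusted p = 6.64e-06).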

How the results depend on the processing

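The 4 counts of calls over all genes stayed within 1.5 times of those reported under the filters, the mean of all probe sets, both rescalings, the fit of 6 arrays and the other prior. Testing every probe set gave 5966 higher and 5346 lower, with 746 and 389 at 2-fold or more. An offset of 50 gave 195 and 128 at 2-fold or more. Leaving out each array gave 2539 to 3180 higher and 2422 to 3171 lower, and 267 to 370 and 221 to 284 at 2-fold or more. With the replicate block the counts were 2978 and 2896, with 312 and 238 at 2-fold or more. Averaging all probe sets reversed Tfcp2l1 (0.0303), Tet1 (0.37), Srf (0.34), Trp53inp1 (0.30), Csnk1a1 (-0.0325) and Foxf1 (-0.0596). The cause was not tested. Over the named genes and alternatives, 4139 values kept direction and side of the threshold, 116 passed newly and 68 no longer passed. Of 60 list counts, 31 moved by over 1.5 times under at least 1 alternative, among them 2 of the 13 counts of 10 or more. Ribosomal genes called higher went from 1 to 7 with the other prior. With quantile normalization repeated, respiratory chain genes called lower went from 4 to 9 and cell cycle genes called higher from 14 to 7. List counts with every probe set were not run. Signal near the floor limits folds, medium cannot be told apart from preparation, and differences can rest on the probe set chosen. Among the 12 largest falls, Cryl1 (-2.54) and Rcsd1 (-2.80) each had another probe set called higher (0.43 and 0.29).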

Other observations

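By chromosome, shares of calls are given as values with no test, beside 22.3% higher and 22% lower over all genes. Of 771 tested genes on chromosome 1, 30.7% were higher and 15.3% lower in Wnt3a-treated wild type, with a median difference of 0.07. Chromosome 8 lay close to it, with 30.6% higher and 13.9% lower of 736 genes and a median of 0.07. Chromosome 7 leaned the other way, with 17.3% higher and 27.1% lower of 1121 genes and a median of -0.05.

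Cell cycle genes were higher for 14 (46.7%) and lower for 5 (16.7%) of 30, where over all genes 22.3% were higher and 22% lower. The inhibitors Cdkn2b (1.51) and Cdkn1a (1.01) were the largest differences upwards and Cdkn1b, another inhibitor, was lower (-0.55, with another probe set called higher). The higher count was 7 without untreated knockout array 2, 8 without Wnt3a-treated wild-type array 2, and 7 with quantile normalization repeated. Of 12 p53 targets, 6 were higher (50%), led by the desmosomal gene Perp (1.58), and 1 was lower (8.33%). Amino acid and unfolded protein stress genes were higher for 10 (45.5%) and lower for 5 (22.7%) of 22, with a median of 0.19. Atf3 (1.22) and Phgdh (0.91) were higher, and Xbp1 (-0.79) and Pdia4 (-0.76) were lower. The higher count was 6 without untreated knockout array 1, without Wnt3a-treated wild-type array 1, or with quantile normalization repeated. Nodal and Activin genes were higher for 5 (27.8%) and lower for 3 (16.7%) of 18, near the shares over all genes. The activin antagonist Fst (1.49) was higher, and the activin subunit Inhbb (-1.27) and Nodal (-0.63) were lower. DNA methylation genes were higher for 5 (33.3%) and lower for 5 (33.3%) of 15, with the dioxygenase Tet2 at -0.74. Without untreated knockout array 3, 3 were lower.

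Of 3311 probe sets that the annotation does not list, 389 were higher and 888 were lower, with 50 and 39 at 2-fold or more. Over all genes tested, in a separate fit, 3084 of 13811 were higher (22.3%) and 3042 were lower (22%).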
